A study of Mus musculus with 8 samples.

Results

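The proximal part of mouse chromosome 17 was examined here in 2 blocks, from the start of the chromosome to 10 Mb and from 20 to 30 Mb (build mm9), as measured in the prefrontal cortex of mice that lack α-galactosidase A. Members were all non-control array probes whose annotated start lies in either block, except the probes of the Dynlt1 copies, Tmem181a, Cpne5, Decr2 and Pdia2. This gave 885 probes of the 55681 non-control probes on the array, 269 below 10 Mb and 616 from 20 to 30 Mb, and 273 probes from 10 to 20 Mb served for comparison. The blocks were picked because genotype differences on these same arrays clustered there, so every count of members by genotype is a description of the values that chose them and no test of the blocks was made.

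The arrays compared 4 α-Gal A(-/0) mice with 4 wildtype mice, 1 single-color array per mouse. All were male and 20 to 24 weeks old, and the whole prefrontal cortex was taken, so fewer cells of a type and less RNA per cell cannot be told apart. The α-Gal A(-/0) mice carry a disrupted Gla gene on the X chromosome, which encodes the lysosomal enzyme that removes terminal galactose from glycolipids, the enzyme deficient in Fabry disease. The sample labels give the strain C57BL/6J for both genotypes, whereas the study's methods give C57BL/6 for the α-Gal A(-/0) background and C57BL/6J for wildtype mice, and state that the arrays used separate inbred colonies. Genotype and colony therefore cannot be told apart in any value below. For RT-qPCR of selected genes the study used backcrossed α-Gal A(-/0) mice to control for colony effects. Those mice are not on these arrays.

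The proximal part of mouse chromosome 17 holds the t complex, a region known for inversions that keep t haplotypes together and for clusters of duplicated genes that act in sperm, among them copies of the dynein light chain gene Dynlt1. Gene-dense DNA with housekeeping, RNA-processing and signaling genes lies in this part too, along with clusters of zinc finger genes, vomeronasal receptors and tryptases. Long intergenic noncoding RNAs (lincRNAs) lie between the protein-coding genes, and the array carries tiled probes for many such intervals.

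Some facts of the whole series bear on the values. Between 29943 and 36139 probes were well above background on the α-Gal A(-/0) arrays and between 35648 and 38240 on the wildtype arrays, and the lowest number belonged to α-Gal A(-/0) replicate 2. The single Gla probe read 17.13 to 17.18 in α-Gal A(-/0) mice, against 17.01 to 17.17 in wildtype mice (log2 signal), but its place relative to the disruption was not given in the sources used here, so it does not check the labels. Defining markers of excitatory and inhibitory neurons, astrocytes, oligodendrocytes and microglia were all present at 8 of 8 arrays. The mean log2 signal of 6 striatal markers ranged from 10.74 to 12.50 in α-Gal A(-/0) mice, against from 10.39 to 11.86 in wildtype mice. Of the tested markers, Csf1r (microglia) and Cdhr1 (olfactory bulb) passed the test, with log2 fold changes of -0.44 and 1.73. The other olfactory bulb markers, Doc2g, Eomes and Tbx21, had log2 fold changes of 0.08, 0.12 and 0.08 and did not pass.

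The 4 probes below 10 Mb that passed the test of genotype are shown first, with probes of the same region that tile the same interval or share bases with another probe. Each is 60 bases long, is written 5′ to 3′ as in the deposited array annotation, and is given with the mm9 position of its match. The pair A_30_P01027121 (chr17:6288982-6289041, reverse strand) and A_30_P01028665 (chr17:6457777-6457836, forward strand) lie in 2 lincRNA intervals and share 56 identical bases, marked in capitals.
A_30_P01027121: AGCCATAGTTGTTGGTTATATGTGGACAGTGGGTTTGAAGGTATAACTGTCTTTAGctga
A_30_P01028665: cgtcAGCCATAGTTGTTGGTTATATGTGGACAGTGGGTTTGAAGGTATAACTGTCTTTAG

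A lincRNA probe at chr17:6311311-6311370, A_30_P01022032, is the reverse complement of the Dynlt1f probe (A_55_P2151138, chr17:6606983-6607042) over the 46 bases in capitals.
A_30_P01022032: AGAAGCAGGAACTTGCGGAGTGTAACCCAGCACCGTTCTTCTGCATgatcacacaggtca
A_55_P2151138: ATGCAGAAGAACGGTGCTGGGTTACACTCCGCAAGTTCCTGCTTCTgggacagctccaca

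The called lincRNA probe A_30_P01026467 (chr17:6607549-6607608, reverse strand) shares the 34 bases in capitals with a lincRNA probe on another chromosome, A_30_P01031560 (chr6:135299310-135299369, forward strand).
A_30_P01026467: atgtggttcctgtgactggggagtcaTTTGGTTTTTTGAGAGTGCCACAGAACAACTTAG
A_30_P01031560: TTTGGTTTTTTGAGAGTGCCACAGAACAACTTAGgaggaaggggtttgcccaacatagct

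A trio of reverse-strand probes of 1 lincRNA interval, A_30_P01026339 (chr17:6831039-6831098), A_30_P01021554 (chr17:6831099-6831158) and A_30_P01018546 (chr17:6831173-6831232), does not overlap and shares no run of 20 or more bases with another probe on the array, so no base is in capitals.
A_30_P01026339: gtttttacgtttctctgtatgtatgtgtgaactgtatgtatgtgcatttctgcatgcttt
A_30_P01021554: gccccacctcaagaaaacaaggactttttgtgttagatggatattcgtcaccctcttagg
A_30_P01018546: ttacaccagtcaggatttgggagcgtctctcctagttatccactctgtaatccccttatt

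The last probe shown, that of the unnamed transcript TC1671985 (A_55_P2104904, chr17:3082341-3082400, reverse strand), had the lowest adjusted p of the members.
A_55_P2104904: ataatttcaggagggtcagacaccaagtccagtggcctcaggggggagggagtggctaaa

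Of the 885 members, 3 had an uneven spot on some array and 566 passed the filter on dim probes, which asked that every array of 1 genotype, or of both, read the probe as well above background. These were 145 probes (84 gene names) below 10 Mb and 421 probes (293 gene names) from 20 to 30 Mb. On all 8 arrays 476 of them were well above background. Another 87 passed through the wildtype arrays only, and all 87 were dim on α-Gal A(-/0) replicate 2, 78 of them on that array alone. The 3 that passed through the α-Gal A(-/0) arrays only were lincRNA probes at chr17:6291151-6291210, chr17:6311311-6311370 and chr17:21667614-21667673, and they had to lie higher in α-Gal A(-/0) mice to pass.

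Across the 2 blocks, 7 tested members passed an adjusted p of 0.05 in limma, 6 of them higher in α-Gal A(-/0) mice and 1 lower. This was 1.24% of the tested members, against 0.885% of all 34339 tested probes. Without wildtype replicate 1 the number was 13, without α-Gal A(-/0) replicate 1 or 3 or wildtype replicate 2 it was 4, and without wildtype replicate 3 it was 3. By direction, 0.306% of all tested probes were called higher and 0.580% lower. Below 10 Mb, 4 of 145 members (2.76%) passed, all higher, from 20 to 30 Mb 3 of 421 (0.713%), 2 higher and 1 lower, and from 10 to 20 Mb 1 of 156 probes (0.641%), lower. The study's own criterion (p no higher than 0.01, fold change 1.2 or more) held for 18 members below 10 Mb (12.4%), 24 from 20 to 30 Mb (5.70%) and 4 probes from 10 to 20 Mb (2.56%), against 3.46% of all tested probes. Of these, 16 were higher and 2 lower below 10 Mb, 13 higher and 11 lower from 20 to 30 Mb, and 1 higher and 3 lower from 10 to 20 Mb, where 1.14% of all tested probes were higher and 2.32% lower by this criterion. The genotypes did not overlap at 25 of 145 members below 10 Mb, 52 of 421 from 20 to 30 Mb and 8 of 156 probes from 10 to 20 Mb, against 7.95% of all tested probes. The typical member did not carry a difference of this kind, since the median size of the log2 fold change was 0.11 below 10 Mb, 0.09 from 20 to 30 Mb, 0.11 from 10 to 20 Mb and 0.09 over all tested probes.

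**Figure D1:**
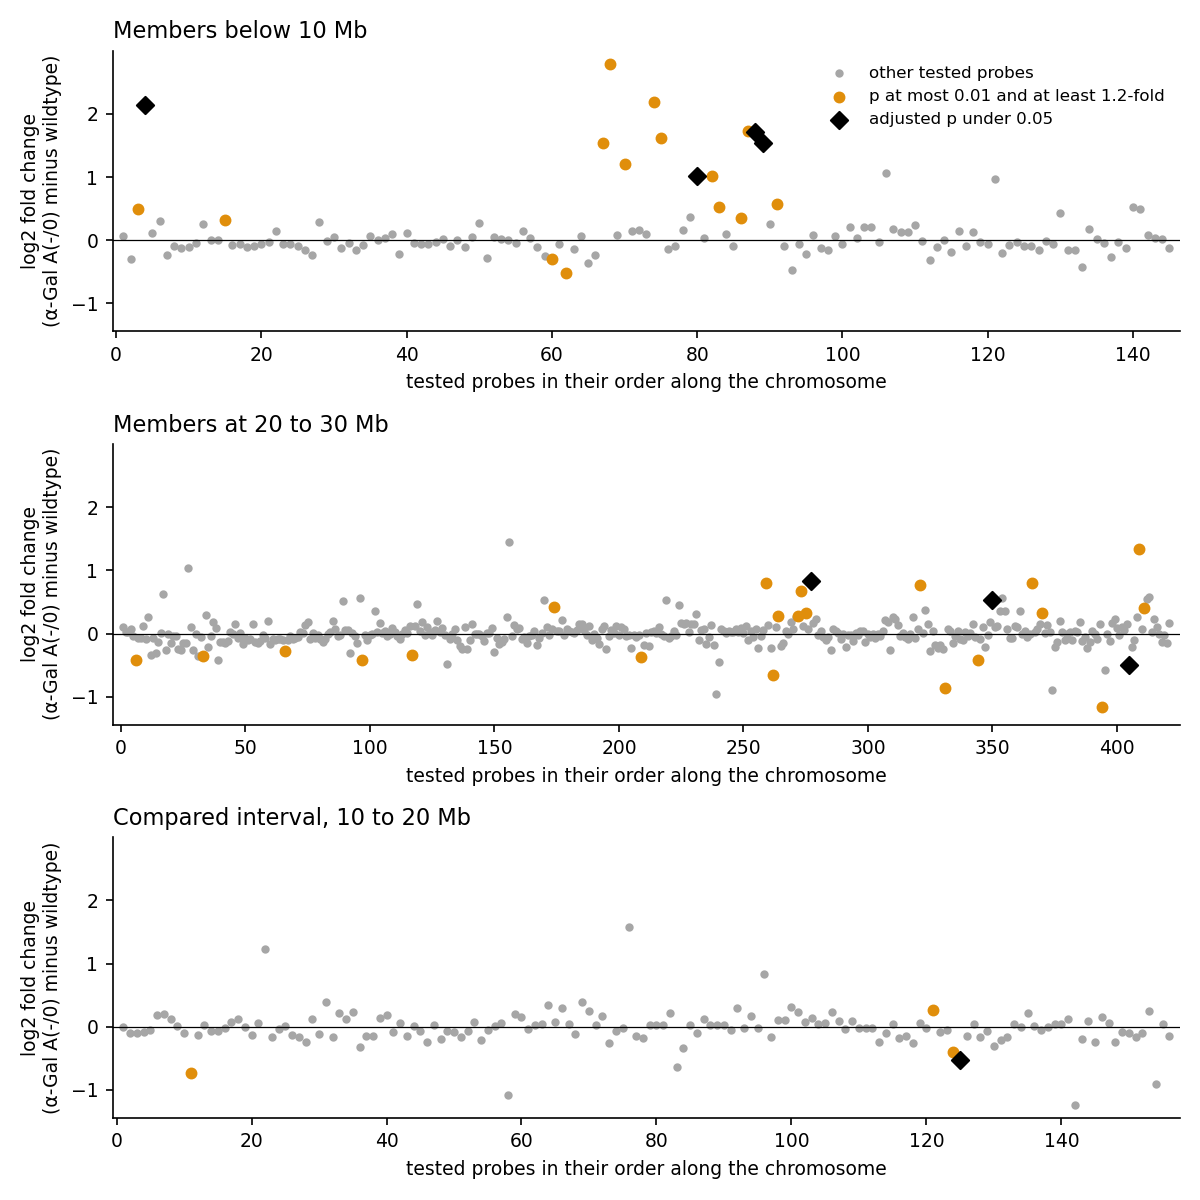
Log2 fold change, α-Gal A(-/0) minus wildtype, of every tested probe below 10 Mb (145 probes), from 20 to 30 Mb (421) and from 10 to 20 Mb (156), in order along the chromosome. Below 10 Mb the probes past the study's criterion (orange) and the called probes (black diamonds) sit mostly together and above 0, whereas from 20 to 30 Mb they are spread out and lie on both sides of 0.

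Below 10 Mb the differences were concentrated in 1 short stretch. Between the probes of Tulp4, a tubby-like protein gene, and Sytl3, a synaptotagmin-like gene of vesicle transport, lie 60 member probes, and 25 of them were tested. Of these 25, 13 met the study's criterion and 3 were called, every one higher in α-Gal A(-/0) mice, with log2 fold changes of 0.35 to 2.80 (median 1.53). At all 13 the genotypes did not overlap. Of the 13, A_30_P01030842, which gave the 2.80, and A_30_P01022032 passed the filter through the α-Gal A(-/0) arrays only. Their place on the higher side is therefore partly a result of the filter. The limits of this stretch were set after its values were seen. Outside it, 5 of the other 120 tested members below 10 Mb met the criterion and 1 was called. The probes left out of the members in this stretch, Tmem181a, Dynlt1a, Dynlt1f and Dynlt1c, had log2 fold changes of 1.81, 0.81, 1.18 and 1.16.

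Of the 3 called probes in the stretch, 2 belong to the trio printed above. Probe A_30_P01021554 read 11.53, 11.41, 11.36 and 11.56 in α-Gal A(-/0) mice, against 10.74, 9.51, 9.35 and 9.38 in wildtype mice (log2 signal, replicates 1 to 4). The log2 difference was 1.72 ± 0.29 (SE; adjusted p = 0.042, limma). Wildtype replicate 1 thus stood more than 1 log2 unit above the other wildtype mice, yet below all 4 α-Gal A(-/0) mice. Probe A_30_P01018546 read 11.55, 11.39, 11.42 and 11.57 in α-Gal A(-/0) mice, against 10.87, 9.70, 9.58 and 9.63 in wildtype mice, a log2 difference of 1.54 ± 0.27 (adjusted p = 0.049). Probe A_30_P01026339 read 11.71, 11.36, 11.31 and 11.49 in α-Gal A(-/0) mice, against 10.81, 9.51, 9.28 and 9.39 in wildtype mice, a difference of nearly the same size (1.72 ± 0.32) that did not pass the test (adjusted p = 0.061). All 3 probes placed the mice in the same arrangement, with wildtype replicate 1 between the α-Gal A(-/0) mice and the remaining wildtype mice.

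The same arrangement recurred along the stretch. Wildtype replicate 1 was the highest wildtype mouse and below every α-Gal A(-/0) mouse at 12 of the 13 members past the criterion, and also at the 4 probes of Tmem181a and the Dynlt1 copies. Where α-Gal A(-/0) mice all read higher than wildtype mice, some wildtype mouse must hold this place. Of the 1058 tested probes of the whole array with that pattern, wildtype replicate 1 held it at 173 (16.4%), and wildtype replicates 2, 3 and 4 held it at 32.0%, 28.9% and 22.4%. The exception among the 13 was A_30_P01031795 (chr17:6817485-6817544), which read 6.51, 6.58, 6.72 and 6.67 in α-Gal A(-/0) mice, against 6.15, 6.10, 6.49 and 6.35 in wildtype mice. The calls rested on the choice of mice. Without wildtype replicate 1, 9 of the 25 tested members in the stretch were called, all higher, among them A_30_P01021554 and A_30_P01018546 (adjusted p = 0.0001 each). Without any other single mouse, 0 or 1 of the 25 were called in limma, and with slide row as a block 0, with 14 or 15 of the 25 at an unadjusted p under 0.05 in each of these fits.

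**Figure D2:**
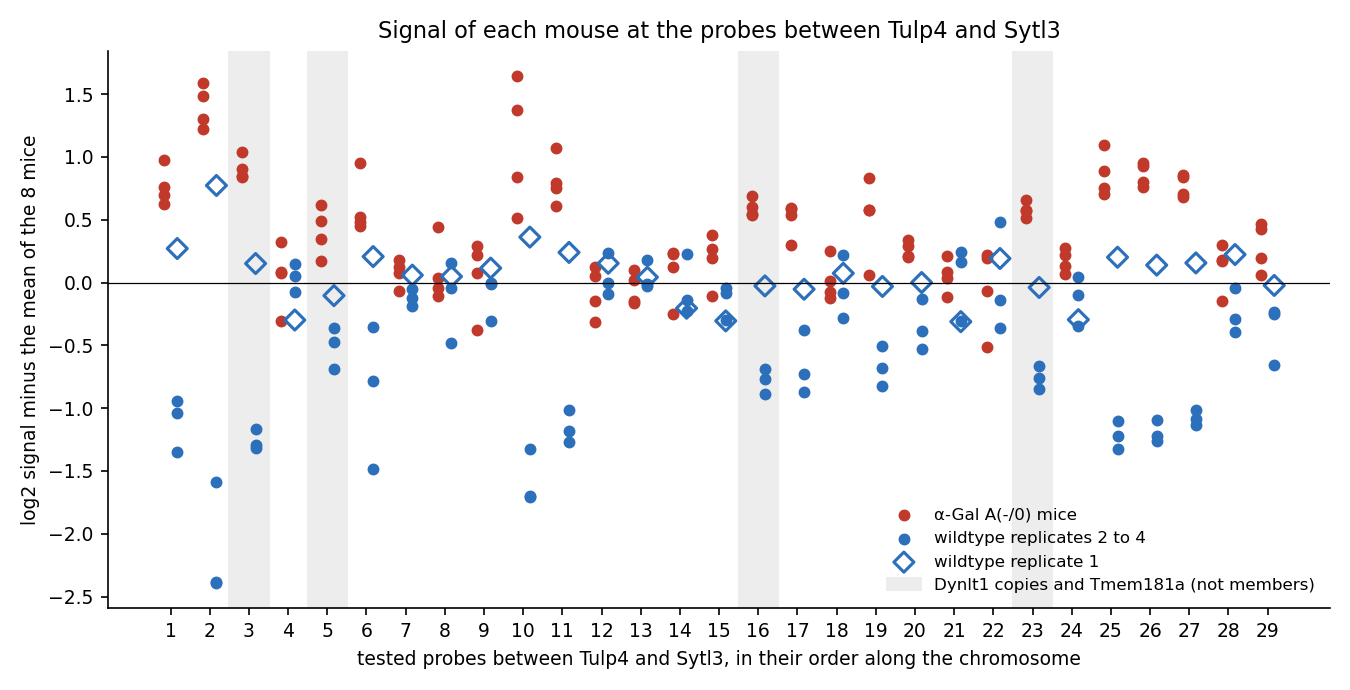
Log2 signal of each mouse minus the mean of the 8 mice (vertical axis) at the 29 tested probes between Tulp4 and Sytl3 in chromosome order: 25 members and, on gray, the 4 probes of Tmem181a and the Dynlt1 copies. At 12 of the 13 members past the criterion wildtype replicate 1 (open diamonds) lies below the α-Gal A(-/0) mice (red) and above the other wildtype mice (blue), while at the 12 other members the genotypes lie close together.

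The printed pair with 56 shared bases gave nearly equal values. A_30_P01027121 read 8.74, 8.39, 8.46 and 8.53 in α-Gal A(-/0) mice, against 8.04, 6.82, 6.72 and 6.42 in wildtype mice, and A_30_P01028665 read 8.83, 8.36, 8.55 and 8.51 in α-Gal A(-/0) mice, against 8.00, 6.74, 6.58 and 6.48 in wildtype mice. Their log2 fold changes were 1.53 ± 0.31 and 1.61 ± 0.32 (adjusted p = 0.087 and 0.076), and neither passed the test. Since the 2 probes share nearly all their bases, they are not independent measurements of 2 places on the chromosome. The probe antisense to the Dynlt1f probe, A_30_P01022032, read 6.69, 6.18, 6.25 and 6.21 in α-Gal A(-/0) mice, against 5.94, 4.25, 5.38 and 4.95 in wildtype mice, a log2 difference of 1.2 ± 0.32 (adjusted p = 0.21).

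The called probe A_30_P01026467 read 7.41, 7.12, 7.40 and 7.35 in α-Gal A(-/0) mice, against 6.76, 6.44, 5.94 and 6.09 in wildtype mice, a log2 difference of 1.01 ± 0.17 (adjusted p = 0.043). The chromosome 6 probe that shares 34 of its bases, A_30_P01031560, read 6.97, 6.13, 6.42 and 6.32 in α-Gal A(-/0) mice, against 5.59, 5.36, 4.65 and 5.29 in wildtype mice, a log2 difference of 1.23 ± 0.24 (adjusted p = 0.069). Both probes separated the genotypes, and which transcript either one binds was not tested. Such sharing was common in the stretch. A run of at least 20 bases identical, on either strand, to an array probe placed elsewhere was found in 18 of its 60 member probes (30%), in 9.67% of members below 10 Mb, in 8.77% of those from 20 to 30 Mb, in 13.9% of probes from 10 to 20 Mb and in 6.72% of all 55681 probes. Of the 13 members past the criterion in the stretch, 4 held such a run.

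The pseudogene Tmem181b-ps, related to Tmem181a, had the largest difference among the named genes of the stretch. Its probe (A_55_P2021094, chr17:6446636-6446695) read 9.49, 8.68, 9.21 and 8.35 in α-Gal A(-/0) mice, against 8.20, 6.52, 6.13 and 6.14 in wildtype mice. The log2 fold change was 2.18 ± 0.48 (adjusted p = 0.11, limma). The adjusted p was 0.0071 without wildtype replicate 1, the highest wildtype mouse here, and 0.14 with slide row as a block. This probe passed in 2 of 21 settings. Whether this probe also reads Tmem181a was not tested. The numerically largest difference of all members, 2.80 ± 0.65 (adjusted p = 0.13), belonged to the dim lincRNA probe A_30_P01030842 (chr17:6291151-6291210), which read 6.03, 5.66, 5.93 and 5.74 in α-Gal A(-/0) mice, against 5.21, 2.05, 2.06 and 2.85 in wildtype mice. It was well above background on 1 of the 4 wildtype arrays, that of replicate 1, so its size in the other wildtype mice was not measured.

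Neighboring probes differed in how far they separated the genotypes. On the opposite strand of the interval that holds A_30_P01027121, forward-strand probes at chr17:6354838-6354897 and chr17:6355284-6355343 had log2 fold changes of 0.16 ± 0.17 and 0.10 ± 0.16. Close to the called A_30_P01026467, the probe A_30_P01032971 read 6.87, 6.92, 7.01 and 7.25 in α-Gal A(-/0) mice, against 7.07, 6.91, 6.71 and 7.21 in wildtype mice, with the genotypes overlapping, while A_30_P01017804, next to it on the same strand, differed by 1.02 ± 0.21 (adjusted p = 0.085). The bright probe A_30_P01029295 (chr17:6860885-6860944) read 11.37, 11.69, 11.68 and 11.81 in α-Gal A(-/0) mice, against 11.74, 11.47, 11.23 and 11.12 in wildtype mice. Over the 12 tested members of the stretch that missed the criterion, log2 fold changes ran from -0.14 to 0.37.

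Away from this stretch, the clearest member was TC1671985. It read 7.20, 7.10, 7.18 and 7.17 in α-Gal A(-/0) mice, against 5.26, 4.98, 4.56 and 5.28 in wildtype mice, a log2 difference of 2.15 ± 0.15 (adjusted p = 0.0004), or 1.10 with normexp background correction. The α-Gal A(-/0) mice lay within 0.1 log2 units of each other and wildtype replicate 1 did not stand apart. The nearest tested probe, the lincRNA probe A_30_P01025132 (chr17:3081683-3081742), read 5.66, 5.56, 5.57 and 5.30 in α-Gal A(-/0) mice, against 5.21, 4.90, 4.90 and 5.07 in wildtype mice, without passing the test (0.50 ± 0.10, adjusted p = 0.087). Scaf8, which encodes a protein that binds the tail of RNA polymerase II, had log2 fold changes of 0.32 ± 0.09 and -0.06 ± 0.06 at its 2 probes.

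Synj2, the gene of synaptojanin 2, a phosphoinositide phosphatase of membrane traffic, was the one named gene below 10 Mb to meet the study's criterion at more than 1 probe. The probe A_55_P2142072 read 9.17, 8.81, 8.75 and 8.80 in α-Gal A(-/0) mice, against 9.49, 9.40, 9.27 and 9.42 in wildtype mice, and the genotypes did not overlap. The log2 difference was -0.51 ± 0.10 (adjusted p = 0.078). The other 2 probes had log2 fold changes of -0.30 ± 0.09 and -0.25 ± 0.12 (adjusted p = 0.25 and 0.44). No Synj2 probe passed the test.

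From 20 to 30 Mb the called members were 3 single probes of protein-coding genes. Luc7l, whose yeast relative Luc7 is part of the U1 splicing particle, rose at its probe A_55_P2414924 (chr17:26418844-26418903). This probe read 10.16, 10.02, 10.35 and 10.28 in α-Gal A(-/0) mice, against 9.42, 9.23, 9.41 and 9.45 in wildtype mice, a log2 difference of 0.83 ± 0.09 (adjusted p = 0.0031). The second Luc7l probe (A_51_P489413) read 8.47, 8.50, 8.64 and 8.47 in α-Gal A(-/0) mice, against 8.46, 8.45, 8.34 and 8.53 in wildtype mice, with a log2 fold change of 0.07 ± 0.07. The 2 probes of this gene therefore disagreed, and the first alone separated the genotypes.

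Taf11, a subunit of the general transcription factor TFIID, rose at its single probe (chr17:28038103-28038162), which read 10.75, 10.74, 10.80 and 10.67 in α-Gal A(-/0) mice, against 10.15, 10.10, 10.30 and 10.30 in wildtype mice. The log2 fold change was 0.53 ± 0.07 (adjusted p = 0.0099, and 0.067 with slide row as a block). Ppil1, a peptidyl-prolyl isomerase found in the spliceosome, fell (chr17:29387780-29387837). It read 8.66, 8.62, 8.78 and 8.81 in α-Gal A(-/0) mice, against 9.23, 9.09, 9.29 and 9.28 in wildtype mice, a log2 difference of -0.50 ± 0.07 (adjusted p = 0.019, 0.062 with slide row as a block, and 0.069 to 0.078 without α-Gal A(-/0) replicate 1 or wildtype replicate 1, 3 or 4). At both genes the range within a genotype was smaller than the gap between genotypes.

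**Figure D3:**
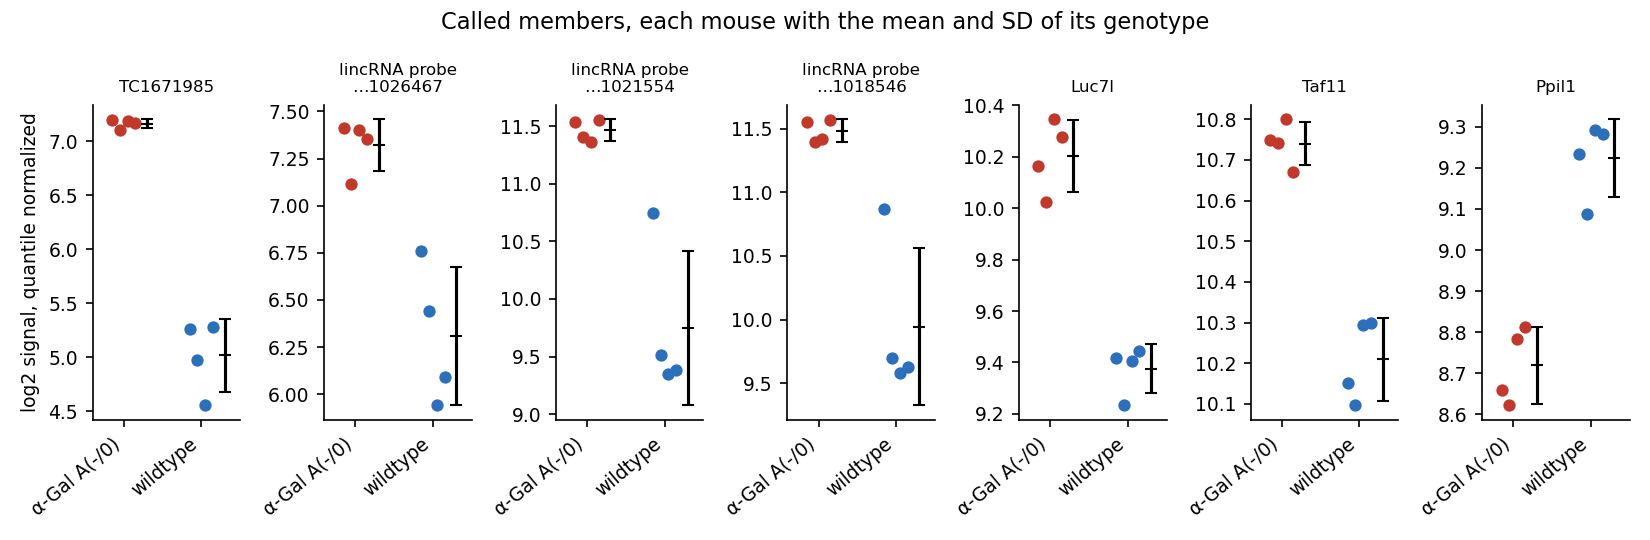
Log2 signal of the 7 called members in each mouse, α-Gal A(-/0) on the left and wildtype on the right of each panel, with the mean and SD of 4 mice beside the points. The vertical axes differ between panels. At the lincRNA probes A_30_P01021554 and A_30_P01018546, 1 wildtype mouse lies far above the others. The third lincRNA probe, A_30_P01026467, and TC1671985, Luc7l, Taf11 and Ppil1 have no mouse so far apart.

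A further 21 probes from 20 to 30 Mb met the study's criterion without passing the adjusted threshold, and 11 of them were higher in α-Gal A(-/0) mice. The lowest adjusted p among them belonged to Itfg3, now named Fam234a, at 11.14, 11.29, 11.28 and 11.26 in α-Gal A(-/0) mice, against 10.93, 10.98, 10.81 and 10.93 in wildtype mice (log2 fold change 0.33 ± 0.06, adjusted p = 0.063). Nthl1, a DNA glycosylase of base excision repair, differed by 0.42 ± 0.08 on the log2 scale (adjusted p = 0.078), and its genotypes did not overlap. Other probes on the higher side included those of Wfikkn1, a secreted inhibitor of myostatin signaling (0.80 ± 0.20), Tulp1, a photoreceptor protein (0.80 ± 0.16), Ip6k3, an inositol phosphate kinase (0.77 ± 0.19), Fgd2, an exchange factor for Cdc42 (0.41 ± 0.10), and Capn15, a calpain family member (0.27 ± 0.08). On the lower side were Nhlrc4 (-0.65 ± 0.16), Spdef, an epithelial transcription factor (-0.42 ± 0.11), Ptx4, a pentraxin (-0.38 ± 0.11), the zinc finger genes Zfp945 (-0.41 ± 0.10) and Zfp760 (-0.36 ± 0.09), and a dim lincRNA probe at chr17:29207178-29207237 (-1.16 ± 0.30), which was well above background on 1 of 4 α-Gal A(-/0) arrays and 4 of 4 wildtype arrays. The probes of Nhlrc4 and Ptx4 and this probe of Zfp945 also passed the filter through the wildtype arrays only, where they read higher. Each was well above background on 3 of 4 α-Gal A(-/0) arrays. So was the dim probe of Wfikkn1, which passed through the wildtype arrays only, although it read higher in α-Gal A(-/0) mice. Within the block, 7 of the 24 probes past the criterion started between 26 and 27 Mb, 6 of them higher, among 51 tested probes there. This window was singled out after its values were seen, and 3.46% of all tested probes met the criterion.

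Clps, the gene of colipase, the cofactor of pancreatic lipase, read 7.79, 7.51, 7.60 and 7.76 in α-Gal A(-/0) mice, against 7.37, 7.23, 7.33 and 7.44 in wildtype mice (log2 fold change 0.32 ± 0.08, adjusted p = 0.17). Pi16, a peptidase inhibitor, read 8.79, 8.98, 8.61 and 8.03 in α-Gal A(-/0) mice, against 6.63, 7.90, 7.28 and 7.26 in wildtype mice (log2 fold change 1.33 ± 0.29, adjusted p = 0.10). The genotypes did not overlap at either gene, but neither passed the test.

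The order of the mice at Pi16 matched that of the striatal markers. Within each genotype the 6 markers, averaged, placed the mice as Pi16 did, at 12.31, 12.50, 12.01 and 10.74 in α-Gal A(-/0) mice, against 10.39, 11.86, 11.30 and 11.29 in wildtype mice. Pde10a, a phosphodiesterase abundant in the striatum and a member below 10 Mb, read 13.62, 13.73, 13.29 and 12.30 in α-Gal A(-/0) mice, against 12.08, 13.27, 12.85 and 12.80 in wildtype mice at the brighter of its 2 probes (log2 fold change 0.49 ± 0.35, adjusted p = 0.62), again in that order. None of the 6 striatal markers passed the test, with log2 fold changes of 0.53 to 0.86. The part of striatal tissue in the values of Pi16 and Pde10a was not tested.

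**Figure D4:**
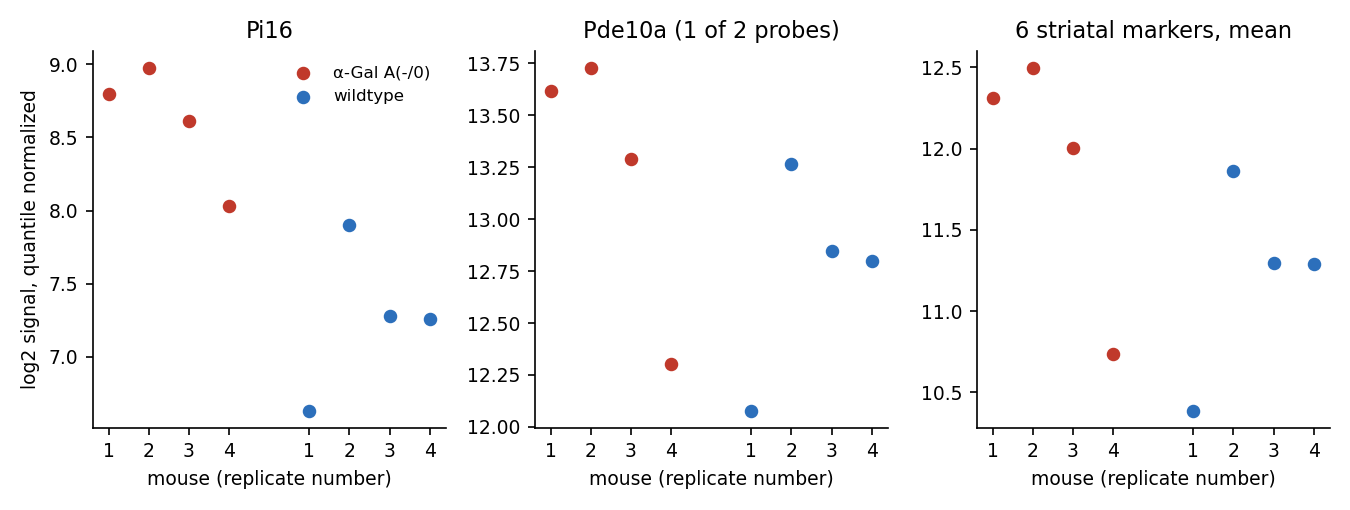
Log2 signal of Pi16, of Pde10a and of the mean of 6 striatal marker genes in each of the 4 α-Gal A(-/0) mice (red, left) and 4 wildtype mice (blue, right). In every panel α-Gal A(-/0) replicate 4 and wildtype replicate 1 are the lowest mice of their genotype, and only Pi16 separates the genotypes.

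The members were also grouped by role, with lists drawn up while earlier results of these data were known. In transcription and RNA processing, 2 of 33 tested probes passed the test, Luc7l and Taf11, both higher, and the median log2 fold change was -0.02, as over all tested probes. Next in p was Phf1, a Polycomb-associated protein, whose 2 probes had log2 fold changes of 0.23 ± 0.05 and 0.26 ± 0.08 (adjusted p = 0.099 and 0.24). In the other 12 lists 0 of 155 tested probes passed the adjusted threshold in limma, 18 (11.6%) had an unadjusted p under 0.05, against 4117 of all 34339 tested probes (11.99%), and the methods' t-test called none of the members, so the rest are given by the study's criterion. That criterion held for 3.46% of all tested probes and 7.42% of the tested members, and the counts of the lists are small. Among zinc finger genes 2 of 32 tested probes met it, 1 of Zfp945 and 1 of Zfp760, both lower, and the median was -0.07, the lowest of the lists. The other tested probes of Zfp945, both brighter, had log2 fold changes of -0.11 ± 0.09 and -0.02 ± 0.08. Zfp960, the 1 called probe from 10 to 20 Mb, belongs to the same gene family and fell, at 9.76, 9.65, 9.75 and 9.44 in α-Gal A(-/0) mice, against 10.16, 10.07, 10.27 and 10.19 in wildtype mice (log2 fold change -0.53 ± 0.09, adjusted p = 0.035, and 0.060 to 0.12 without any 1 mouse other than α-Gal A(-/0) replicate 4). Zinc finger genes of this kind resemble one another closely, and whether a probe reads 1 gene only was not tested.

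Among genes of synapses, ion channels and G proteins, 3 of 29 tested probes met the criterion, Arhgdig higher and 2 Synj2 probes lower (list median 0.02). Rab11fip3, an effector of the recycling GTPase Rab11, had 12.91, 12.92, 12.86 and 12.83 in α-Gal A(-/0) mice, against 13.11, 13.06, 13.06 and 13.07 in wildtype mice, a small difference without overlap (-0.19 ± 0.05, adjusted p = 0.18). Among lysosomal, proton pump and lipid genes 2 of 15 tested probes met it, Ip6k3 and Clps, both higher (list median 0.05). In this list no probe of the lysosome-related genes Gnptg and Clcn7 or the proton pump genes Atp6v0c and Atp6v0e met it. Their log2 fold changes ran from -0.05 to 0.10. Pigq, a gene of glycolipid anchor synthesis, stood at a log2 difference of -0.24 ± 0.06 (adjusted p = 0.15). Of the t complex loci 1 of 9 met it, Fgd2, and Tcp11, a testis gene, had 0.36 ± 0.16. Of the cilia and microtubule genes 1 of 9 met it, Tulp1, whose second probe had 0.03 ± 0.10, and Tulp4 had -0.24 ± 0.11.

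No probe met the criterion among 18 probes of signaling kinases and phosphatases, 4 of glucocorticoid-responsive genes, 9 of ribosome and translation, 13 of mitochondria, 11 of mTOR, growth and ubiquitin genes, 8 of serine proteases and tryptases, and the 1 tested of 33 vomeronasal and formyl peptide receptor probes. The members of lowest p were Mapk8ip3 (0.11 ± 0.08) and Stk38 (-0.24 ± 0.17) among signaling genes, Cdkn1a (0.17 ± 0.12) and Pim1 (0.55 ± 0.42) among glucocorticoid-responsive genes, and Rpusd1 (-0.19 ± 0.07) and Mrpl28 (0.18 ± 0.07) in translation. They were Fahd1 (-0.17 ± 0.08) and Rhot2 (0.11 ± 0.06) among mitochondrial genes, Anks1 (0.12 ± 0.06) and Stub1 (0.08 ± 0.05) in the growth and ubiquitin list, Prss34 (0.45 ± 0.15) and Tpsb2 (0.15 ± 0.09) among proteases, and Vmn2r111 (0.19 ± 0.19). All of these had adjusted p from 0.30 to 0.72. The value of Pim1, an immediate early kinase, rested on α-Gal A(-/0) replicate 2, since it read 5.47, 7.46, 5.54 and 5.67 in α-Gal A(-/0) mice, against 5.46, 5.73, 5.53 and 5.24 in wildtype mice.

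**Figure D5:**
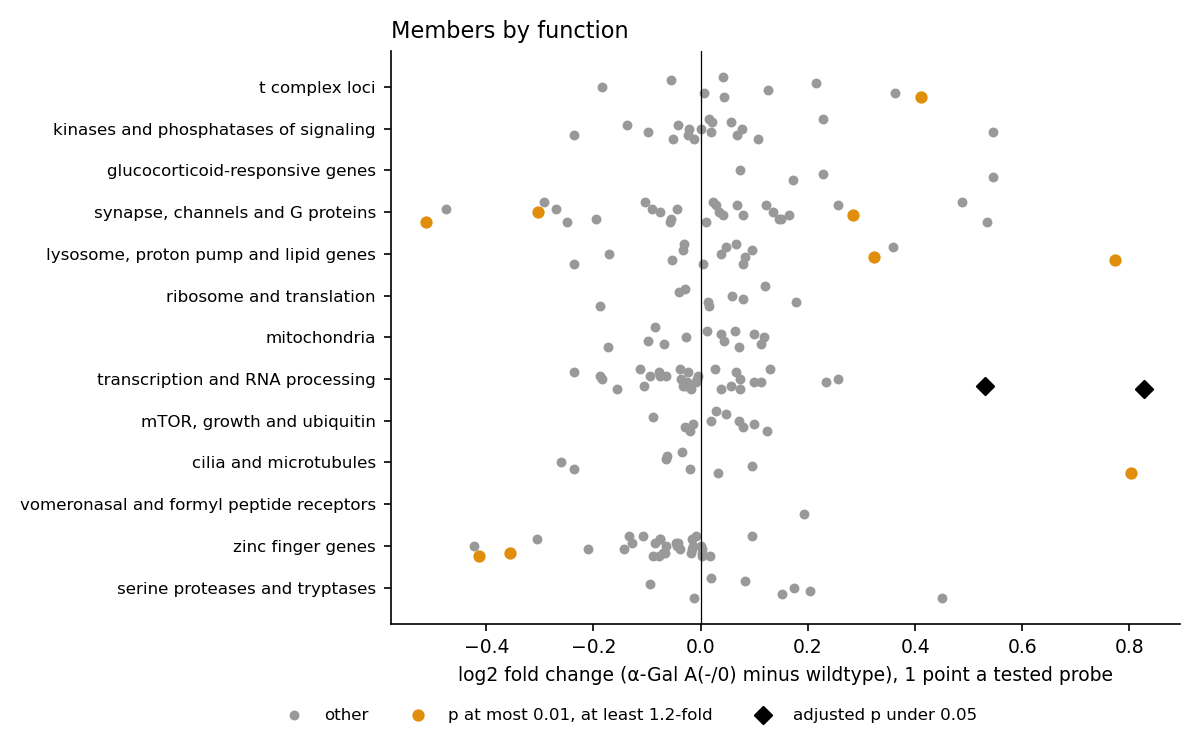
Log2 fold change, α-Gal A(-/0) minus wildtype, of each tested member probe in 13 lists of genes grouped by role, 1 point a probe. Pim1 and other genes in several lists appear more than once, and the 2 black diamonds are Luc7l and Taf11, the only listed probes called in limma at an adjusted p of 0.05.

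Probes of 1 gene mostly gave similar values. For 67 named genes with several tested member probes, the median gap between the highest and the lowest log2 fold change was 0.11, and 4 genes had a gap of 0.5 or more, namely Tulp1, Luc7l, Zfp820 and Traf7. In 7 of the 67 at least 1 probe met the study's criterion, and in 0 of them did all probes meet it. By kind of probe below 10 Mb, 13 of 76 tested lincRNA probes met it, against 4 of 47 probes of named genes and 1 of 22 probes of other transcripts. From 20 to 30 Mb it was 3 of 98 lincRNA probes, 18 of 257 probes of named genes and 3 of 66 of other transcripts. The lincRNA share was thus the highest of the kinds below 10 Mb and not from 20 to 30 Mb, a difference that was not tested. Most of the 13 lincRNA probes lie between Tulp4 and Sytl3, where some tile the same interval or share bases.

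The brightest members scarcely differed between genotypes. Fbxl16, an F-box protein gene abundant in brain, averaged 16.78 ± 0.06 in α-Gal A(-/0) mice, against 16.76 ± 0.04 in wildtype mice (SD, n = 4 each), and Rps10, a ribosomal protein gene, 16.32 ± 0.01 in α-Gal A(-/0) mice, against 16.31 ± 0.06 in wildtype mice. Below 10 Mb, Mpc1, a subunit of the mitochondrial pyruvate carrier, averaged 14.66 ± 0.07 in α-Gal A(-/0) mice, against 14.76 ± 0.09 in wildtype mice at its brighter probe. At the edges of the blocks, the last tested member below 10 Mb was a lincRNA probe with a log2 fold change of -0.12 ± 0.30 and the first tested probe beyond it was of Qk, at -0.01 ± 0.09. At 20 Mb the nearest probe inside had 0.10 ± 0.06 and the nearest outside -0.15 ± 0.09. At 30 Mb the last member inside was Mdga1 (0.17 ± 0.16) and the first probe outside was C130068B02Rik (-0.18 ± 0.10), so no edge fell at a called probe.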

How the data were processed

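Prefrontal cortex RNA of 4 α-Gal A(-/0) and 4 wildtype mice was labeled with Cy3 and hybridized to 8 arrays of 1 slide. The deposited intensity values are the background-corrected signals the authors extracted with Agilent Feature Extraction 10.7.3.1 (mm9 positions), not normalized between arrays. The deposited value table, whose columns do not follow their sample names, was not used. Spots of a probe were averaged, log2 transformed and quantile normalized. Controls and 81 probes with uneven spots were dropped, and a probe was tested if every array of 1 genotype, or of both, read it as well above background (limma 3.58.1, Benjamini-Hochberg over 34339 probes). No probe was saturated. The members and gene lists were chosen with earlier results of these data known. Text names called members, probes past the study's criterion, the 2 lowest p of each list, Pi16, Clps, Synj2, block edges and the brightest members; Pde10a, Tmem181b-ps and the probes set beside called ones were picked after their values were seen. The 513 member names were matched to GRCm38.p6 symbols for 322. Each array held 1 mouse, and the number of arrays limits precision. Slide row (row 1: α-Gal A(-/0) replicate 1 and wildtype replicates 1 to 3) was tried as a block and by row. Same-numbered mice did not deviate together. The test was tried on simulated data.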

Additional observations from a re-analysis of the deposited data

Results flagged for a closer look

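A mouse was marked when it stood far from the other 3 of its genotype (by Dixon's ratio of the gap to the nearest mouse over the range of the genotype). Of 132 genotype groups of named members 10 were marked, where chance marks about 1 in 20, and over all tested probes 7.02% of α-Gal A(-/0) and 5.43% of wildtype groups were. Wildtype replicate 1 was high at the lincRNA trio, at 10.81 (A_30_P01026339), 10.74 (A_30_P01021554) and 10.87 (A_30_P01018546), where the next wildtype mouse read 9.51, 9.51 and 9.70. It was low at Prss34 (4.31). α-Gal A(-/0) replicate 1 was high at Synj2 probe A_55_P2142072 (9.17) and at lincRNA probe A_30_P01022032 (6.69). α-Gal A(-/0) replicate 2 was high at Pim1 (7.46, next 5.67) and low at Spdef (6.77). α-Gal A(-/0) replicate 4 was high at Anks1 (9.26), and wildtype replicate 2 low at Mrpl28 (11.09).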

How the results depend on the processing

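Every named fold change that was recomputed kept its direction under every setting. Counts of calls were small and moved. Called members in the 2 blocks (7) became 16 with normexp background correction, 11 with array weights, 14 with the excepted genes counted, 3 with multigene families and unnamed transcripts left out, 2 with slide row as a block and 3 to 13 with 1 mouse left out, the highest without wildtype replicate 1 and the lowest without wildtype replicate 3. Below 10 Mb (4) they became 10 with normexp, 2 with no filter on signal, 1 with slide row as a block and 1 to 10 with 1 mouse left out, 10 without wildtype replicate 1 and 1 or 2 without any other. From 20 to 30 Mb (3) they became 6 with normexp, 6 with intensity trend and robust variances, 8 with array weights, 1 with slide row as a block and 2 to 5 with 1 mouse left out, the highest without α-Gal A(-/0) replicate 4. From 10 to 20 Mb (1) they became 2 with normexp, 2 with array weights, 0 with no filter on signal, 0 with slide row as a block (12 at an unadjusted p under 0.05 in limma) and 0 to 1 with 1 mouse left out. The methods' t-test called 0 in each, with 86, 28, 58 and 11 at an unadjusted p under 0.05, and within slide row 1 or row 2 alone, settings chosen after seeing the data, limma called 0 in each, with 64 and 31 members of the 2 blocks at an unadjusted p under 0.05. Members past the study's criterion (42) became 16 with the methods' t-test, 27 with 1 probe a gene, 21 in row 1 and 17 in row 2, and 32 to 42 with 1 mouse left out.

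The shared replicate numbers do not pair the mice (correlations of -0.09, 0.14, 0.01 and 0.15). With the replicate number as a block the calls became 3 in the 2 blocks, 1 below 10 Mb, 2 from 20 to 30 Mb and 0 from 10 to 20 Mb (19 at an unadjusted p under 0.05 in limma), and the criterion count 34. The cause of these moves was not tested.

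Of the called members, TC1671985 and the Luc7l probe passed in 18 of 21 settings each, Taf11 in 16, Ppil1 in 12, and the 3 lincRNA probes in 5 to 8. Slide row and genotype are partly confounded, with 3 of 4 mice of a genotype in each row.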
